A study of Mus musculus with 45 samples.

Results

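The ABC transporter family was followed in cultured mouse forelimb buds exposed to bisphenol S (BPS), an industrial replacement for bisphenol A. Its members were taken as every protein-coding gene whose symbol is Abc, a subfamily letter from a to g, a number and, where present, a final a or b. That rule found 50 genes of 34994 in the joined count tables, with 16 in subfamily A, 10 each in B and C, 4 in D, 1 in E, 3 in F and 6 in G. Forelimbs came from CD1 mouse embryos at gestation day 13, were pooled without regard to sex, and were kept in bottles of culture medium with DMSO as the vehicle, with 10 µM BPS or with 50 µM BPS. Each bottle was cultured for 3, 24 or 48 h, which gives 9 groups of 5 poly-A RNA libraries, 45 in all. No group carried a mutation or transgene. The strain label of the 50 µM 48 h libraries differs from library to library while the series text names CD1 throughout, so these were treated as CD1. The labels do not say whether the 5 libraries of a group came from separate cultures, and a p-value here therefore speaks only to how these libraries vary.

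ABC proteins share an ATP-binding cassette, and most of them use ATP to move lipids, drugs, conjugates, peptides or metabolites across a membrane. Cells that take up or make too much sterol export it through Abca1 and Abcg1, which are classic targets of the oxysterol receptor LXR, while P-glycoprotein (encoded in mice by the neighbours Abcb1a and Abcb1b), Abcg2 and the Abcc proteins expel foreign compounds and their conjugates. Members of subfamilies E and F carry the cassette but span no membrane and act on ribosomes and translation.

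Upstream sequences are shown for 5 members on which the results below turn: Abca1 as the main sterol exporter, Abcb1b as the P-glycoprotein gene that fell and then recovered, and Abca8a, Abca9 and Abca8b as neighbours of which 2 rose and 1 did not. They come from RefSeq (GRCm38.p6), run 5′ to 3′ along the gene's own strand, and cover up to 250 bases before the RefSeq start, without any base that lies inside the gene model of the deposited tables. Abca1 is at chr4:53159896-53160145 on the minus strand, Abcb1b at chr5:8797897-8798146 on the plus strand, Abca8a at chr11:110095979-110096187, Abca9 at chr11:110168197-110168403 and Abca8b at chr11:109995846-109996095, the last 3 on the minus strand. Capitals mark a match, on either strand, to 1 of 4 motifs that do not overlap here. The GC box was searched as GGGCGG and the box named for its letters as CCAAT. The core promoter element known as the TATA box was searched as TATAAA, and the E-box that many helix-loop-helix factors bind was searched as CACGTG.
Abca1: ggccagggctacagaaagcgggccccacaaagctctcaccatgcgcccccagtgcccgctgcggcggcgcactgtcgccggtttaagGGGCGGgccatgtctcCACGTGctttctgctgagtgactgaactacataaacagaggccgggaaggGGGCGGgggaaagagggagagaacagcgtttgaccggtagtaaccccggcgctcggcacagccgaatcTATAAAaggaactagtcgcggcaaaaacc
Abcb1b: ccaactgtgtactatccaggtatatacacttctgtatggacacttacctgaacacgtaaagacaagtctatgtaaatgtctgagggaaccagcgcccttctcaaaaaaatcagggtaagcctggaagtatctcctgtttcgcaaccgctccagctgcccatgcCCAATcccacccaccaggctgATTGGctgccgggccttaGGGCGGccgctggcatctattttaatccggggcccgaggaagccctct
Abca8a: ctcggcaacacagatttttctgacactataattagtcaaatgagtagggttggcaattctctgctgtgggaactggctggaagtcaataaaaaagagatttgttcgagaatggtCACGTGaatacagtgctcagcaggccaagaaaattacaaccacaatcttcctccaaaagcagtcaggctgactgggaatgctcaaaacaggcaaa
Abca9: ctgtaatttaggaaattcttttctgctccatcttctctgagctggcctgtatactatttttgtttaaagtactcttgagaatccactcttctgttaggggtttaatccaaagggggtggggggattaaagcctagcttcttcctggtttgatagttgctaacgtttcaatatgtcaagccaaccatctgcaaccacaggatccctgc
Abca8b: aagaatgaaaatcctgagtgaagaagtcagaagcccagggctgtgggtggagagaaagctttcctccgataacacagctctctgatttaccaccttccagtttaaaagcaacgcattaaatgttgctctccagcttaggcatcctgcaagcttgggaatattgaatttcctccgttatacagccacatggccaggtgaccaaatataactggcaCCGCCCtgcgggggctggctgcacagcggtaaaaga
The Abca1 stretch held 2 GC boxes, an E-box and a TATA box whose first base lies at -29, and the Abcb1b stretch held a GC box at -48 and CCAAT boxes at -87 and -66, all counted from the RefSeq start. Over the 250 bases before the start, the GC box stood in 17 of the 38 members with a promoter in the table and in 35.4% of 27025 genes, the CCAAT box in 13 members and 37.5% of genes, the TATA box in 5 members and 14.3% of genes, and the E-box in 5 members and 6.86% of genes. A perfect direct repeat of AGGTCA with a spacer of 4 bases, an LXR-type motif, was in none of the 38 members' windows and in 4 of the 27025 genes. A string this rare would be missing from nearly any set of 38 genes. Looser forms of the repeat were not searched, so its absence does not speak to LXR sites in these windows. Pairwise identity of the 250-base windows was 46.3% for Abca8a and Abca9, 45% for Abca8a and Abca8b, and 47.6% for Abca8b and Abca9. The alignments allowed gaps and no unrelated promoters were aligned, so these values alone do not tell whether the windows are related.

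Counts assigned to genes totalled 15.2 to 23.1 M reads a library, with a median of 18.2 M, so that 3 reads correspond to 0.13 to 0.197 CPM (counts scaled to 1000000 per library, here with library sizes adjusted by edgeR's TMM factors). Genes of limb bud mesenchyme and cartilage were abundant in the 3 h controls, with the forelimb gene Tbx5 at 299.9 ± 12.8 CPM (SD, n = 5) and the cartilage collagen gene Col2a1 at 2577 ± 151 CPM. The hindlimb gene Tbx4 was at 22.8 ± 1.4 CPM. Every pair of replicates differed by more than sampling noise (chi-square per degree of freedom at least 4.42).

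Of the 50 members, 36 had enough reads to be tested in all 12 comparisons of 2 groups, 4 in some of them and 10 in none. The highest group mean was at least 100 CPM for 5 members, between 10 and 100 CPM for 19, between 1 and 10 CPM for 15 and under 1 CPM for 11. The 10 untested members were Abca13, Abca14, Abca15, Abca16, Abca17, Abcb5, Abcb11, Abcc2, Abcc12 and Abcg8, and 4 members had at most 3 reads in every library. Abcb1a, Abcb4, Abcg3 and Abcg5 passed the read filter in only some comparisons. Because Abcb1a passed mainly through its 3 h level, its fall had to follow once it was tested against 3 h, and counts over the tested members carry that choice.

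Per kilobase of gene model, the most abundant members in the 3 h controls were the 4 that transport nothing. Abcf2 stood at 47.6 ± 1.9 CPM per kb, Abcf1 (a translation initiation factor partner) at 34.8 ± 1.7, Abce1 (which splits ribosomes after termination) at 23.0 ± 1.2 and Abcf3 at 17.8 ± 0.8 (SD, n = 5). Below them the conjugate and cyclic nucleotide exporter Abcc5 stood at 12.6 ± 0.4 CPM per kb, the peroxisomal Abcd3 at 10.5 ± 0.9, the mitochondrial Abcb8 at 9.88 ± 0.34 and Abca1 at 9.43 ± 1.44. Abcc5 lay above the other 3 of these by more than the spreads, and Abcd3, Abcb8 and Abca1 did not differ beyond theirs. Abcg1 was at 5.77 ± 1.59 CPM per kb and the P-glycoprotein genes Abcb1b and Abcb1a were at 0.477 ± 0.059 and 0.228 ± 0.066.

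**Figure D1:**
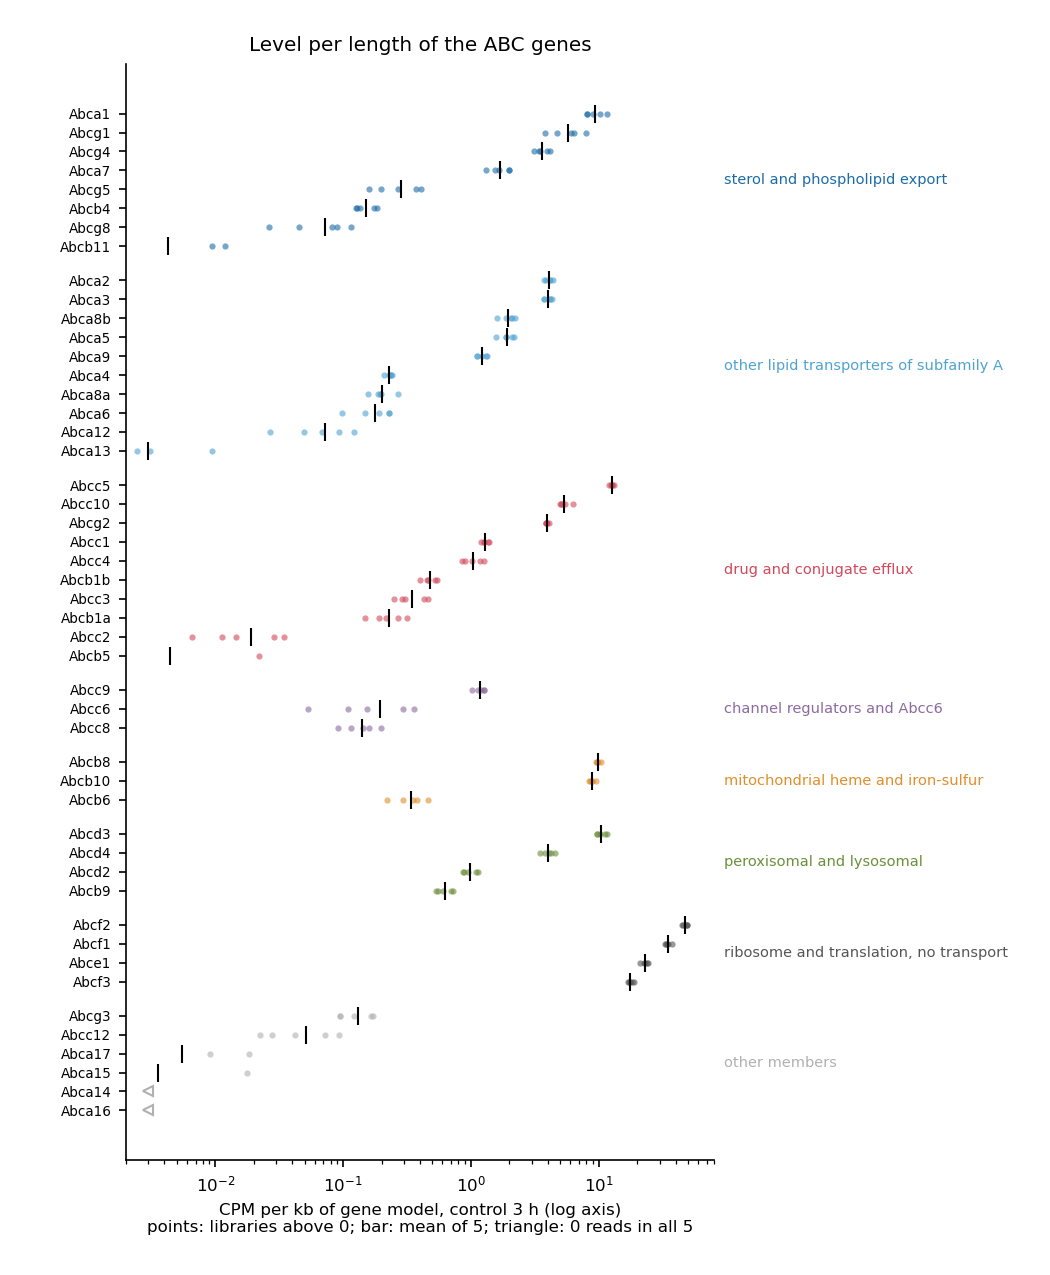
Level of 48 ABC genes in the 5 control libraries at 3 h, as CPM per kilobase of gene model on a log axis, grouped by role. Points are libraries above 0, bars are means of 5 and triangles mark genes with 0 reads in all 5; the ribosome and translation members, from Abcf2 at 47.6 to Abcf3 at 17.8, lie to the right of every transporter mean.

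Time in culture changed the family broadly without BPS. Between 3 and 48 h in DMSO, 13 of the 40 tested members rose and 8 fell by edgeR's quasi-likelihood test (Benjamini-Hochberg adjusted p below 0.05 over all genes). Among all 16850 tested genes 49.3% were called, 24.5% as higher and 24.8% as lower, so the family's share lay near that of the genome. The median change was 0.102 on the log2 scale over the tested members and -0.014 over all genes. The 3 largest rises were in Abca8a, Abcc3 and Abca12 and the 3 largest falls in Abcb1a, Abcb4 and Abcc4. In these whole buds, fewer cells of a type and less RNA per cell cannot be told apart.

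**Figure D2:**
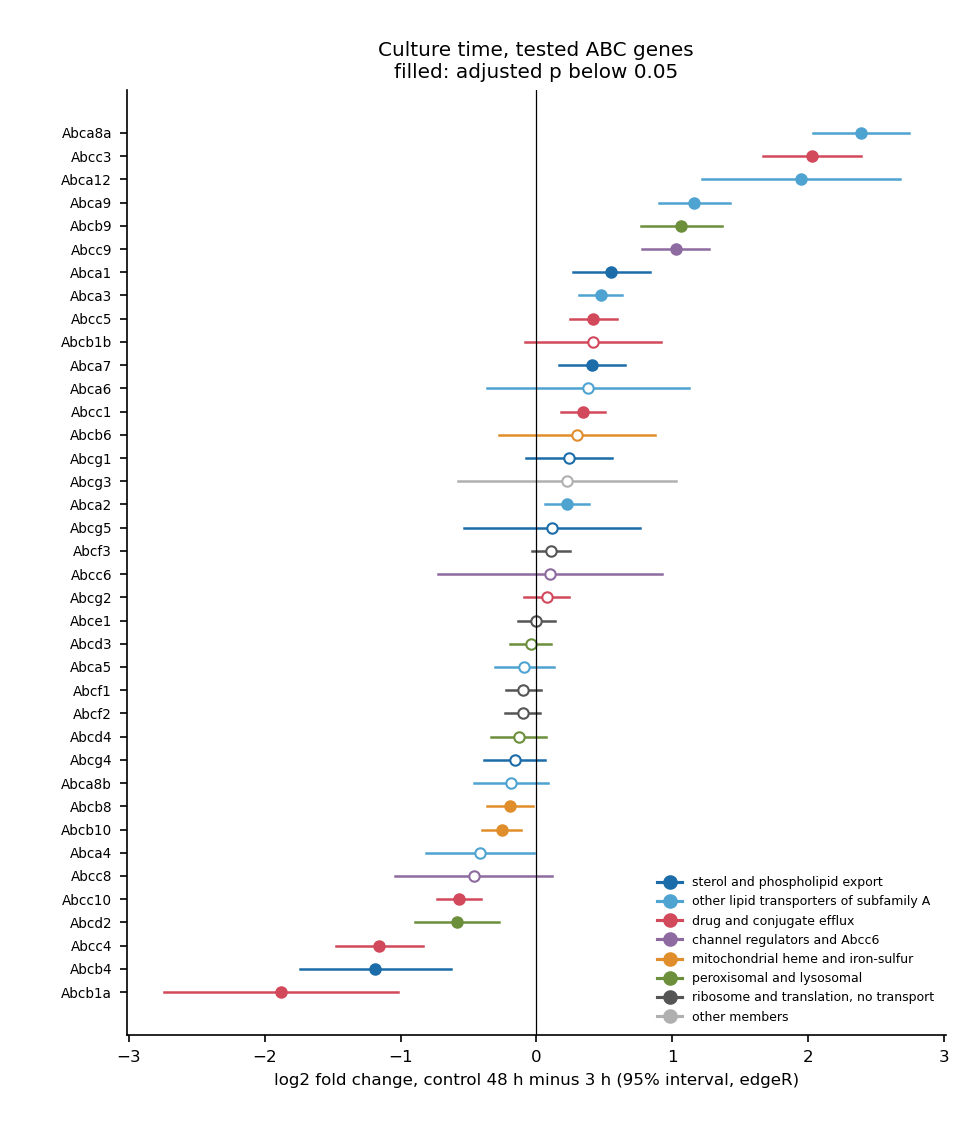
Log2 fold change from 3 to 48 h in DMSO for 38 of the tested ABC genes, ordered by size, with 95% intervals and coloured by role. Filled symbols mark the 12 higher and 7 lower members drawn at adjusted p below 0.05; changes run from 2.39 for Abca8a to -1.88 for Abcb1a, and none of the 4 ribosome and translation members is filled.

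Among the 6 tested sterol and phospholipid exporters, 2 rose and 1 fell over 48 h, where 24.5% of all genes were higher and 24.8% lower. Abca1, which loads cholesterol and phospholipid onto apolipoproteins, read 119.7, 84.6, 94.0, 105.4 and 84.7 CPM at 3 h, 144.4, 123.9, 150.9, 143.4 and 143.7 CPM at 24 h, and 107.4, 140.7, 177.3, 133.7 and 161.9 CPM at 48 h. Every 24 h library lay above every 3 h library, while at 48 h the lowest library fell back into the 3 h range. The change was 0.515 ± 0.085 on the log2 scale at 24 h (edgeR adjusted p = 0.00015) and 0.552 ± 0.13 at 48 h (edgeR adjusted p = 0.00301), so most of it was present by 24 h. Abca7, a phospholipid exporter, rose by 0.41 ± 0.11 (edgeR adjusted p = 0.00689). Abcb4, the phosphatidylcholine flippase of bile, fell from a mean of 1.41 ± 0.26 to 0.615 ± 0.124 CPM (SD, n = 5; log2 change -1.19 ± 0.26, edgeR adjusted p = 0.00123). Abcg1, which passes sterol to high density lipoprotein, went from 23.5 ± 6.5 to 28.0 ± 1.5 CPM (edgeR adjusted p = 0.197), and without replicate 1 of the 3 h controls, the highest of the group, it was called at 0.381 (edgeR adjusted p = 0.026).

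The remaining subfamily A lipid transporters had 5 rises and no fall among 9 tested members, with a median log2 change of 0.382. Over all genes 24.5% were called higher and 24.8% lower. Abca8a, whose substrates are less well defined, read 1.23, 1.18, 1.68, 1.24 and 0.978 CPM at 3 h, 3.59, 3.29, 1.71, 2.08 and 3.61 CPM at 24 h, and 7.21, 6.10, 6.25, 6.87 and 7.22 CPM at 48 h. The 3 times did not overlap at any step, and the fitted level at 48 h was 5.22-fold that at 3 h (log2 change 2.385 ± 0.167, edgeR adjusted p = 5.37e-09). Abca9, its neighbour, read 10.8, 9.91, 8.99, 10.6 and 9.05 CPM at 3 h and 15.4, 25.0, 23.8, 22.8 and 23.9 CPM at 48 h, again with no overlap, although replicate 1 at 48 h lay far below the other 4. Its change was 1.16 ± 0.12 (edgeR adjusted p = 7.39e-07). Abca3, the surfactant lipid transporter of lung lamellar bodies, rose by 0.47 ± 0.07 (edgeR adjusted p = 5.43e-05). Of the 50-base stretches of Abca3, 10.1% occur in another gene, most often in D330041H03Rik. That gene overlaps Abca3 on the opposite strand and had 10644 reads over the 45 libraries, so the Abca3 count is less certain.

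Abca8b, Abca8a, Abca9, Abca6 and Abca5 stand in that order on chromosome 11, all on the minus strand, between 109932190 and 110337716 in mm10. In this row only Abca8a and Abca9, which are adjacent, were called over 48 h. Abca8b, on the far side of Abca8a, went from 14.6 ± 1.7 to 12.9 ± 2.5 CPM (log2 change -0.19 ± 0.13, edgeR adjusted p = 0.247). Abca6 changed by 0.38 ± 0.35 (edgeR adjusted p = 0.389) and Abca5 by -0.09 ± 0.10 (edgeR adjusted p = 0.499). Little sequence is shared: 1.64% of the 50-base stretches of Abca8a also occur in another gene, and 0.162% of those of Abca9. No motif of those searched marked both Abca8a and Abca9 in the upstream sequences above, where Abca8a had an E-box and Abca9 had none of the 4.

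Abca12, which loads lipid into the lamellar granules of keratinocytes, changed late. It read 0.394, 1.8, 1.01, 1.37 and 0.734 CPM at 3 h, 1.14, 0.823, 0.693, 0.551 and 1.81 CPM at 24 h, and 2.16, 3.55, 4.52, 6.5 and 3.79 CPM at 48 h. The 3 and 24 h libraries shared 1 range and the 48 h libraries all lay above it (48 against 24 h: 2.01 ± 0.33, edgeR adjusted p = 0.000456). Of 11 tested epidermal marker genes, 5 were higher and 2 lower at 48 h than at 3 h, against 24.5% and 24.8% of all genes. The suprabasal keratin gene Krt1 had means of 5.57 ± 0.77 and 211.7 ± 41.8 CPM (SD, n = 5) at those times. The summed epidermal markers were 289.2 to 531 CPM at 3 h and 564.1 to 923.3 CPM at 48 h. The higher sum came from genes of differentiating layers, with Krt10 at 7.20 ± 1.67 and then 178.3 ± 35.7 CPM. Among basal and general epithelial genes, Krt15 had lower means, 70.7 ± 15.0 and then 30.5 ± 6.6 CPM, as did Epcam, 29.9 ± 3.0 and then 15.95 ± 2.89 CPM. Krt5 (166.7 ± 43.05 and then 155.1 ± 34.04 CPM), Krt14 (138 ± 28.7 and then 129.2 ± 19.6 CPM) and Trp63 (24.8 ± 6.25 and then 19.9 ± 3.62 CPM) moved by less than their 3 h spread (SD, n = 5). Dsc1 had 0 reads in all 5 libraries at 3 h. The part of this shift in the Abca12 change was not tested.

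**Figure D3:**
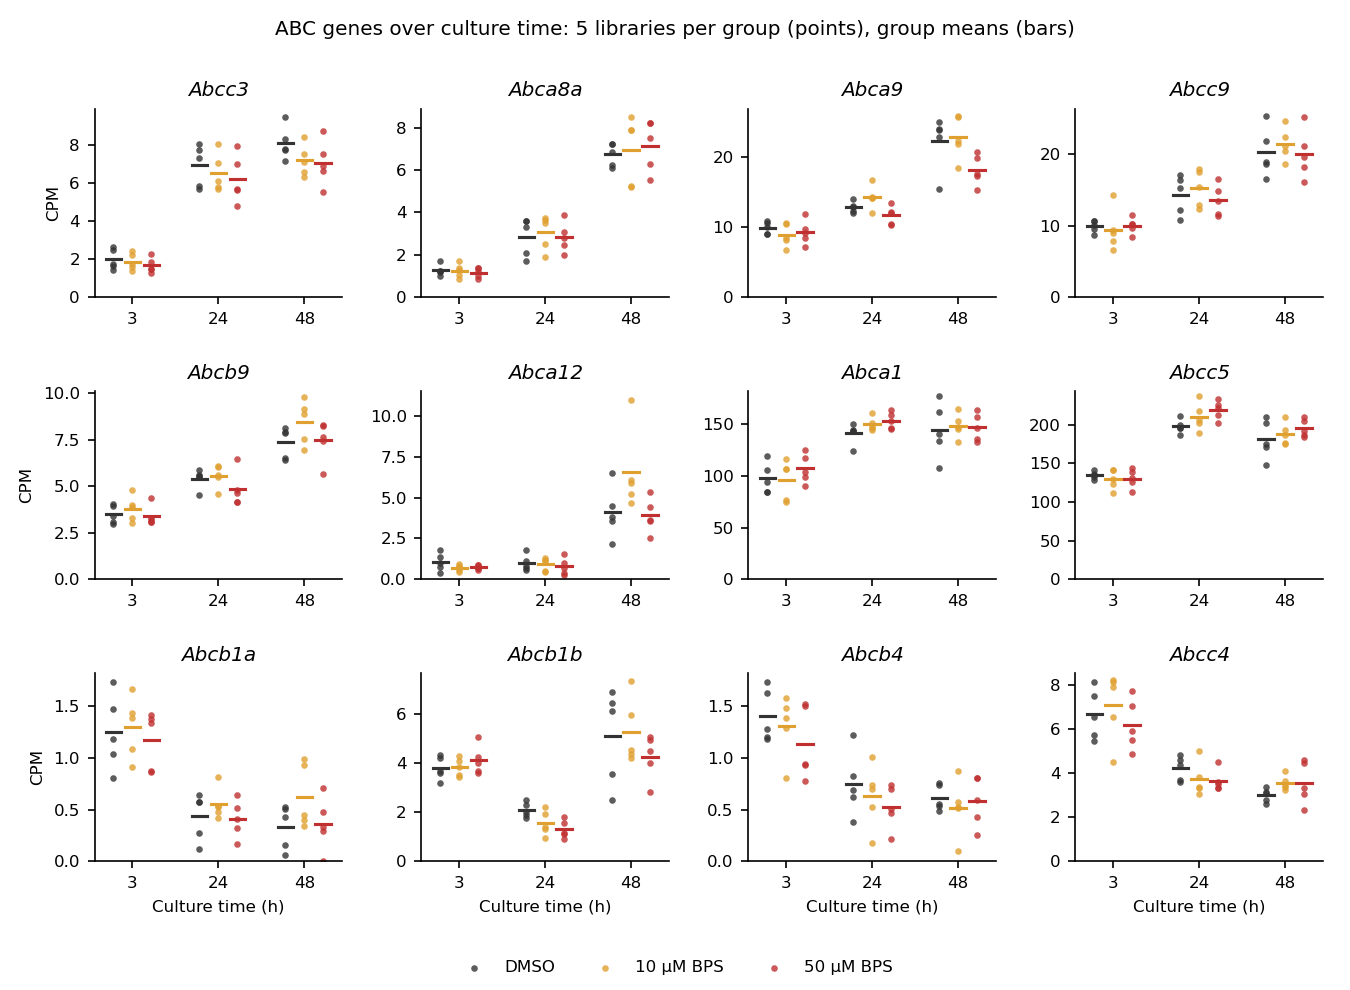
CPM of 12 ABC genes in all 45 libraries by culture time, with 5 libraries per dose and time as points and group means as bars. Abcc3 and Abca8a climb at all 3 doses, Abca12 climbs only after 24 h, Abcb1a, Abcb4 and Abcc4 fall, and Abcb1b falls at 24 h and returns by 48 h (means in DMSO 3.81, 2.10 and 5.12 CPM).

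Of 8 tested drug and conjugate exporters, 3 rose and 3 fell between 3 and 48 h, where 24.5% of all genes were higher and 24.8% lower. Those that fell include Abcb1a, which passed the read filter mainly through its 3 h level. Abcc3, an exporter of glucuronide and bile salt conjugates, read 2.46, 1.75, 1.64, 1.43 and 2.63 CPM at 3 h, 8.09, 5.70, 7.73, 7.35 and 5.85 CPM at 24 h, and 8.35, 9.51, 7.82, 7.78 and 7.16 CPM at 48 h. Both later groups lay wholly above the 3 h group, and the fitted level at 48 h was 4.07-fold that at 3 h (log2 change 2.02 ± 0.17, edgeR adjusted p = 4.61e-08). Abcc4, an exporter of cyclic nucleotides, prostaglandins and urate, read 5.76, 8.17, 5.48, 6.58 and 7.52 CPM at 3 h and 2.61, 3.17, 3.10, 2.80 and 3.37 CPM at 48 h. Those groups did not overlap either (log2 change -1.16 ± 0.15, edgeR adjusted p = 7.51e-06). Abcc10, another conjugate exporter, fell from 37.0 ± 3.5 to 25.1 ± 0.7 CPM (log2 change -0.57 ± 0.08, edgeR adjusted p = 9.81e-06). Abcc5 rose by 0.42 ± 0.08 (edgeR adjusted p = 0.000422) and Abcc1, the glutathione conjugate exporter, by 0.34 ± 0.08 (edgeR adjusted p = 0.00133). Abcg2, the breast cancer resistance protein, stayed between 28.0 and 36.0 CPM in all 15 control libraries, and its change from 3 to 48 h had a 95% interval from -0.088 to 0.237 on the log2 scale.

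The P-glycoprotein genes were read side by side, and the difference between their courses was not tested. Abcb1a read 1.48, 1.18, 1.73, 0.807 and 1.04 CPM at 3 h, 0.57, 0.57, 0.64, 0.12 and 0.27 CPM at 24 h, and 0.057, 0.52, 0.51, 0.43 and 0.16 CPM at 48 h. Both later groups lay below the 3 h group, with single libraries at or under the level of 3 reads. The fitted change, -1.88 ± 0.41 from 3 to 48 h (edgeR adjusted p = 0.001), is a description, since the gene was kept by its 3 h level. Abcb1b read 4.33, 3.61, 3.70, 4.22 and 3.18 CPM at 3 h, 2.51, 1.77, 2.03, 1.90 and 2.30 CPM at 24 h, and 2.5, 6.15, 3.56, 6.93 and 6.47 CPM at 48 h. Every 24 h library lay below every 3 h library (-0.87 ± 0.18, edgeR adjusted p = 0.000459), and at 48 h 3 libraries exceeded all of the 3 h libraries while replicate 1 remained at the 24 h level (48 against 24 h: 1.28 ± 0.26, edgeR adjusted p = 0.00249). Against 3 h, Abcb1b at 48 h changed by 0.42 ± 0.24 (edgeR adjusted p = 0.159), and without that replicate 1 by 0.602 (edgeR adjusted p = 0.0108). At 10 µM BPS the Abcb1b means were 3.84, 1.57 and 5.29 CPM at 3, 24 and 48 h, and at 50 µM they were 4.12, 1.32 and 4.28 CPM, so the 24 h mean was the lowest at each dose.

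Abcb1a, Abcb1b and Abcb4 stand next to each other on the plus strand of chromosome 5, and all 3 were lower at 24 than at 3 h. Abcb1a shares 22.5% of its 50-base stretches with another gene, chiefly Abcb1b, and Abcb1b 12.8%, so the split of their reads is uncertain. The RefSeq start of Abcb1a lies upstream of its gene model in the deposited tables, and its promoter is not shown for that reason. All 10 markers of blood endothelium, a cell type known for P-glycoprotein, were lower at 24 than at 3 h, where 20.1% of all genes were lower. The sum of these markers went from 432.2 to 439.4 CPM at 3 h to 261.9 to 322.3 CPM at 24 h and 266.9 to 380.5 CPM at 48 h. None of these markers was at 0. Their part in the Abcb1a, Abcb1b and Abcb4 changes was not tested.

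Abcc9, the sulfonylurea receptor subunit of a potassium channel in vascular smooth muscle and pericytes, rose from 9.88 ± 0.85 CPM at 3 h to 20.2 ± 3.5 CPM at 48 h (SD, n = 5; log2 change 1.02 ± 0.12, edgeR adjusted p = 1.72e-06). Its libraries at 3 h reached at most 10.6 CPM and those at 48 h began at 16.5 CPM. Of 8 pericyte and smooth muscle markers 4 were higher and 1 lower, where 24.5% of all genes were higher and 24.8% lower. Their sums were 550.3 to 588.2 CPM at 3 h and 825 to 956.2 CPM at 48 h, and none was at 0. Most of the higher sum was Cspg4, with means of 146.8 ± 6.8 and 403.2 ± 30.4 CPM, while Notch3 had means of 150.2 ± 7.8 and 109.3 ± 12.9 CPM and Pdgfrb 131.4 ± 7.0 and 147.9 ± 17.4 CPM. Kcnj8, the pore subunit that pairs with Abcc9, had means of 4.22 ± 1.16 and 8.47 ± 3.03 CPM (SD, n = 5). Of 10 skeletal muscle markers 9 were higher and none lower at 48 than at 3 h. The skeletal muscle sums were 1352 to 1516 CPM at 3 h and 3523 to 5028 CPM at 48 h. The part of either set of markers in the Abcc9 change was not tested. Abcc6 and Abcc8, the other members of this group, were not called.

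Among the 5 peroxisomal and lysosomal members 2 rose and 1 fell, and among the 4 mitochondrial members 3 fell. Of all genes tested over 48 h, 24.5% rose and 24.8% fell. In the lysosome, the peptide transporter Abcb9 rose from 3.49 ± 0.48 to 7.37 ± 0.84 CPM (log2 change 1.07 ± 0.14, edgeR adjusted p = 8.37e-06), with no overlap between the groups. In the peroxisome, Abcd2, an importer of very long chain fatty acids, fell by 0.59 ± 0.15 (edgeR adjusted p = 0.003). In the mitochondrion, Abcb10, needed for heme synthesis in red cells, fell by 0.256 ± 0.069 (edgeR adjusted p = 0.0052) and Abcb8 by 0.197 ± 0.08 (edgeR adjusted p = 0.0492). The Abcb8 call was lost without any 1 of 8 of the 10 libraries (every 3 h library, and replicates 3, 4 and 5 at 48 h), with adjusted p up to 0.133. Of 9 erythroid markers 8 were lower at 48 than at 3 h, where 24.8% of all genes were lower. The sum of these markers went from 747.7 to 1100 CPM down to 232.8 to 568.9 CPM with none at 0 reads, and their part in the Abcb10 change was not tested.

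The 4 ribosome and translation members changed little. None was called between 3 and 48 h, and all 4 intervals lay within a 1.5-fold change either way. Abce1, for example, had a 95% interval from -0.136 to 0.135 on the log2 scale. Abcf1 was called without replicate 1 of the 48 h controls (-0.131, edgeR adjusted p = 0.0393).

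Splitting the course at 24 h showed when members moved. From 3 to 24 h, 9 of 39 tested members rose and 8 fell, against 40.2% of all genes called (20% higher and 20.1% lower). The risers were Abcc3, Abca8a, Abcb9, Abcc5, Abcc9, Abca1, Abca9, Abca2 and Abca3, and the fallers were Abcb1a, Abcb4, Abcb1b, Abcc4, Abcc10, Abcb10, Abcb8 and Abcf2. From 24 to 48 h, 8 of 39 rose and 1 fell, against 16% of all genes called (9.44% higher and 6.55% lower): Abca12, Abcb1b, Abca8a, Abca9, Abcc9, Abcb9, Abca7 and Abcc1 rose and Abcc4 fell. In all, 23 members were called in at least 1 of the 3 control comparisons, which share libraries, and 5 in all 3. The late step rested on few libraries. Its 9 calls became 5 without replicate 3 or replicate 4 of the 24 h controls or without replicate 2 or replicate 4 of the 48 h controls. Abcc9 was lost without replicate 3 or 4 at 24 h (edgeR adjusted p = 0.0614 and 0.0658) or replicate 3 at 48 h (0.0532), and Abcb9 without replicate 3 or 4 at 24 h (0.052 and 0.0749) or replicate 2 or 4 at 48 h (0.0721 and 0.0699). Abca7 was kept only without replicate 1 or 3 at 24 h or replicate 3 at 48 h, Abcc1 only without replicate 1 at 24 h or replicate 1 or 5 at 48 h, and Abcc4 only without replicate 1 or 4 at 24 h or replicate 5 at 48 h, with edgeR adjusted p otherwise up to 0.0951, 0.0973 and 0.108. In the early step, Abcb4 was lost without replicate 2 at 24 h (0.0548), Abcb8 without replicate 5 at 24 h (0.0584) or replicate 4 at 3 h (0.0799), and Abcf2 without replicate 1 or 2 at 24 h or replicate 1, 3 or 5 at 3 h (up to 0.0977).

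The course was read again in libraries that had no part in these calls. The 21 members called between 3 and 48 h in DMSO all had their 48 h mean on the same side of the 3 h mean at 10 µM and at 50 µM BPS. Their 3 and 48 h libraries did not overlap for 17 of the 21 at each of the 3 doses, where over all tested genes 36.0% in DMSO, 40.1% at 10 µM and 42.3% at 50 µM did not overlap. The 21 were picked for their change in DMSO, so that share is not compared further. How many of all genes kept their side at both BPS doses was not counted, so 21 of 21 is not read as particular to the family. The ratio of the 48 h to the 3 h mean was 5.33 in DMSO, 5.56 at 10 µM and 6.19 at 50 µM for Abca8a, 4.1, 3.85 and 4.25 for Abcc3, and 0.449, 0.503 and 0.573 for Abcc4.

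BPS was compared with DMSO at each time, which asks whether the compound shifts these genes at either dose. No member passed the test in any of the 6 comparisons when replicate numbers were not taken as pairs. At 10 µM no gene at all was called (0.0% at 3, 24 and 48 h), and at 50 µM 0.0538%, 0.375% and 1.0% of all tested genes were called at 3, 24 and 48 h, so an absence of calls among 37 to 39 tested members is no departure from the rest of the genome. DESeq2, also without pairs, called none. With the replicate number as a block, edgeR called 1 member at 50 µM and 3 h and 3 members at 24 h. That fit called 1.53% and 5.75% of all genes at those times, and these members are described below. At an unadjusted p under 0.05, edgeR without the block counted 0, 1 and 1 members at 10 µM and 2, 5 and 6 members at 50 µM. Of all genes, 1.98%, 2.99% and 2.62% met that level at 10 µM and 7.98%, 12.4% and 12.9% at 50 µM. At 50 µM and 48 h the 95% interval lay within a 1.5-fold change for 28 of the 38 tested members, and the median log2 change was -0.045 over the members and -0.004 over all genes. The 3 differences between 50 µM responses at different times also gave no member (0.0%, 0.0% and 0.0922% of all genes). They had 1, 1 and 3 members at an unadjusted p under 0.05, where 6.58%, 3.47% and 8.34% of all genes met that level.

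At 50 µM and 3 h the smallest p belonged to Abce1. It read 145.6, 143.6, 127.4, 138.0 and 135.8 CPM in DMSO and 128.9, 127.4, 111.2, 122.4 and 123.4 CPM at 50 µM. Each treated library lay below the control of the same number, yet the groups overlapped, because replicate 3 was the lowest of both. The change was -0.168 ± 0.051 (edgeR adjusted p = 0.364). Once the fit held the replicate number as a block, with numbers taken as pairs here, it was -0.168 ± 0.035 (edgeR adjusted p = 0.0108), in a fit that called 1.53% of all genes. Replicate 2 at 50 µM correlated at 0.116 with the same number in DMSO and at up to 0.351 with another. At 10 µM Abce1 read 134.9, 127.2, 147.0, 144.8 and 136.9 CPM, and by 24 and 48 h its 50 µM means, 144.7 and 139.6 CPM, lay within 1 CPM of those in DMSO, 145.1 and 138.9 CPM. Abcd2 changed by 0.30 ± 0.14 at 3 h (edgeR adjusted p = 0.611).

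At 50 µM and 24 h, 3 members were called with the replicate block and none without it. Abcc5 read 200.3, 195.8, 195.8, 187.0 and 211.7 CPM in DMSO and 225.9, 233.4, 222.0, 213.1 and 202.1 CPM at 50 µM, so 4 of 5 treated libraries lay above their control and replicate 5 below. Its change was 0.155 ± 0.05 without the block (edgeR adjusted p = 0.2) and 0.154 ± 0.041 with it (edgeR adjusted p = 0.0253). Abcg1 read 29.0, 19.4, 28.7, 29.4 and 24.0 CPM in DMSO and 31.6, 25.3, 31.3, 33.6 and 29.0 CPM at 50 µM. All 5 pairs were higher, by 0.217 ± 0.104 without the block (edgeR adjusted p = 0.408) and 0.224 ± 0.066 with it (edgeR adjusted p = 0.0445). Abca5, a lysosomal lipid transporter, read 19.9, 22.3, 19.3, 18.7 and 25.9 CPM in DMSO and 22.2, 25.5, 22.9, 25.1 and 29.0 CPM at 50 µM. It was higher in 5 of 5 pairs, by 0.239 ± 0.1 without the block (edgeR adjusted p = 0.328) and 0.244 ± 0.073 with it (edgeR adjusted p = 0.0459). The blocked fit called 5.75% of all genes, and 3 of 37 members is close to that share. Abcb1b, at its low point in DMSO, read 2.51, 1.77, 2.03, 1.90 and 2.30 CPM in DMSO and 1.16, 0.907, 1.12, 1.82 and 1.57 CPM at 50 µM, where only replicate 4 reached into the control range. Its change, -0.675 ± 0.242 (edgeR adjusted p = 0.251), was not called, and at 10 µM it was -0.42 ± 0.24 (edgeR adjusted p = 0.999).

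At 50 µM and 48 h the smallest p belonged to Abcb6, a mitochondrial and plasma membrane porphyrin transporter. It read 2.78, 1.89, 1.27, 3.46 and 1.92 CPM in DMSO and 1.54, 1.52, 1.10, 1.46 and 1.07 CPM at 50 µM, an overlap set by replicate 3 of the controls (-0.75 ± 0.27, edgeR adjusted p = 0.244). Of the 50-base stretches of Abcb6, 50% occur in another gene, most often in Gm29253, an overlapping transcript model, so its count is uncertain. Abca9 read 17.5, 17.2, 15.3, 20.6 and 19.8 CPM at 50 µM, all below 4 of the 5 DMSO libraries, while replicate 1 of DMSO at 15.4 CPM lay in their range (-0.298 ± 0.122, edgeR adjusted p = 0.311). Without replicate 1 of the 48 h controls the change was -0.405 and was called (edgeR adjusted p = 0.0237). Abca7 changed by -0.213 ± 0.092 (edgeR adjusted p = 0.336). Among 10 macrophage markers 4 were lower at 50 µM than in DMSO at 48 h, where 1.0% of all genes were called in either direction. The macrophage sums were 138 to 213.5 CPM against 206.5 to 282.9 CPM with none at 0, and the part of these markers in the differences above was not tested.

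The highest dose was also set against the lower one, where no DMSO library enters. No member was called by edgeR (0.0%, 0.0% and 0.921% of all genes at 3, 24 and 48 h) or by DESeq2. With the replicate block, which pairs libraries at 24 h, 1.09% of all genes and still no member were called at that time. The fit without the block had 2, 1 and 4 members at an unadjusted p under 0.05, where 4.41%, 5.56% and 11.3% of all genes met that level. At 48 h Abca9 changed by -0.337 ± 0.098 from 10 to 50 µM (edgeR adjusted p = 0.115). The 10 µM libraries read 21.8, 25.7, 18.4, 25.9 and 22.3 CPM, of which only replicate 3 fell within the 50 µM range. Without that replicate 3 the change was -0.401 and was called (edgeR adjusted p = 0.0346). Abca12 read 5.91, 11.01, 4.69, 6.08 and 5.23 CPM at 10 µM and 3.58, 5.37, 2.52, 3.64 and 4.44 CPM at 50 µM, a change of -0.75 ± 0.234 (edgeR adjusted p = 0.187), and replicate 2 at 10 µM stood far above the other libraries. Both genes were called in 2 other fits of this comparison. The replicate block, which does not pair libraries here and called 1.99% of all genes, gave edgeR adjusted p = 0.0307 for Abca9 and 0.0117 for Abca12, and the fit without the low count filter gave 0.0115 and 0.000361. Abca12 at 10 µM against DMSO changed by 0.69 ± 0.27 (edgeR adjusted p = 1.0).

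Sterol export was then set beside sterol synthesis and uptake. None of the 6 tested exporters was called at 50 µM and 48 h. Among all tested genes 1.0% were called there, so no call among 6 exporters is no departure from that share. The sterol synthesis and uptake list held 24 targets of the transcription factor SREBP2, which is released when sterols are low. Of these 24 genes 19 were higher and none lower in the same libraries. Abca1 read 164.4, 157.6, 136.1, 133.2 and 146.4 CPM at 50 µM, inside the DMSO range of 107.4 to 177.3 CPM. Its change was 0.028 ± 0.107 on the log2 scale, with a 95% interval from -0.201 to 0.257 (edgeR adjusted p = 0.944). The synthesis and uptake list had a median change of 0.449 on that scale, where the median over all genes was -0.004. The difference between Abca1 and that list was not itself tested. Abcg1 changed by -0.131 ± 0.076, with an interval from -0.292 to 0.03 (edgeR adjusted p = 0.503), and Abcg4, its relative, was not called. At 24 h, where 0.375% of all genes were called without the block, the synthesis and uptake list had 6 higher genes. The 5 tested exporters again had none without the block, with Abca1 at 0.13 ± 0.055 (edgeR adjusted p = 0.34). The list was known from earlier results of these data to respond, and it stands here only as the background to the exporters.

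**Figure D4:**
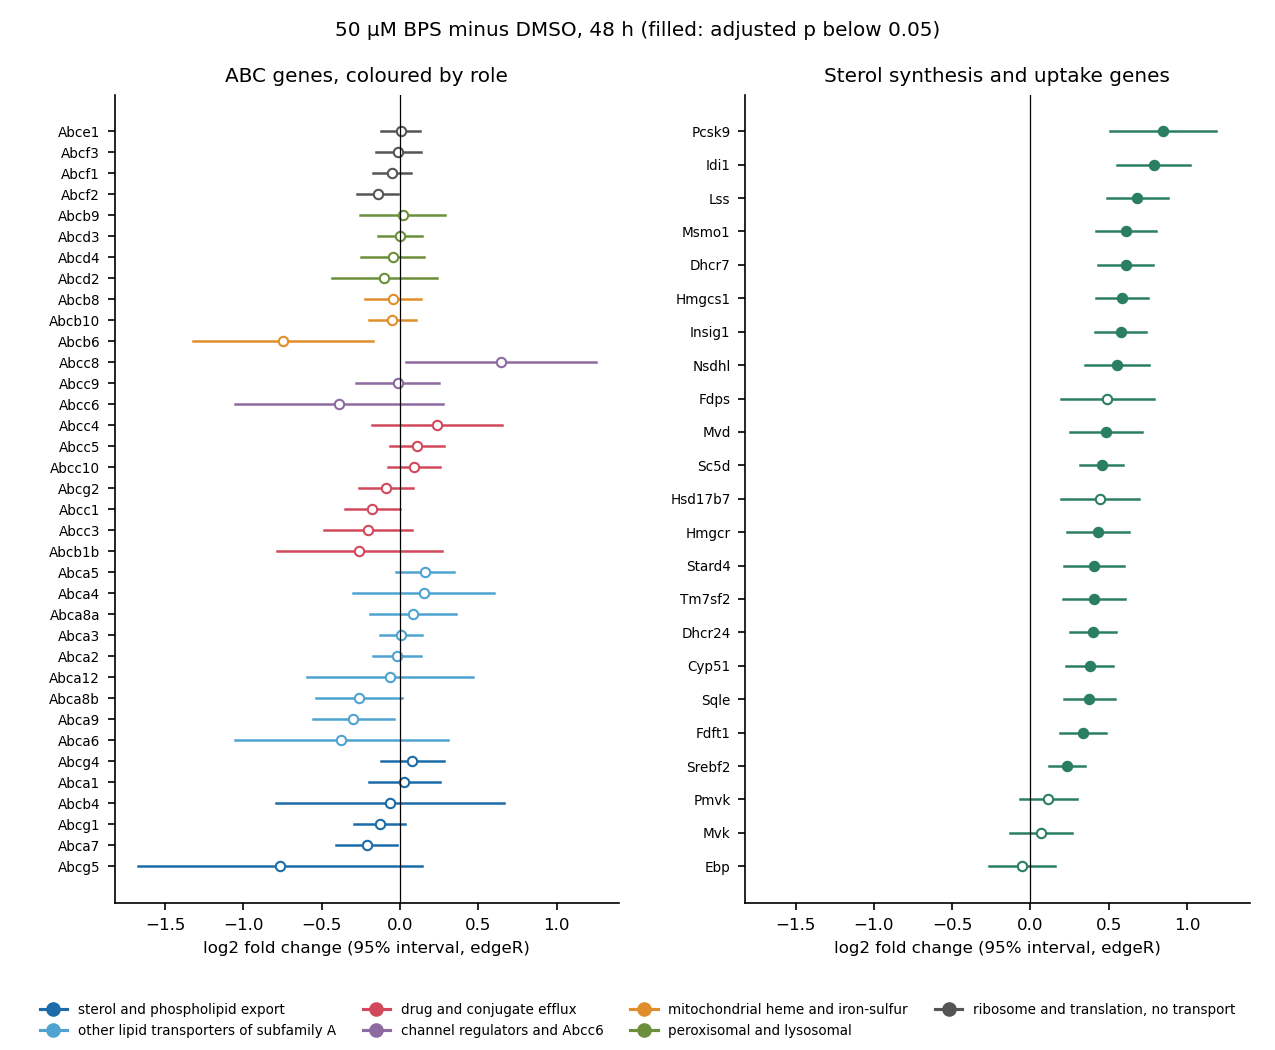
Log2 fold change between 50 µM BPS and DMSO at 48 h, with 95% intervals, for 36 tested ABC genes coloured by role (left) and for 23 sterol synthesis and uptake genes (right), on 1 shared axis. Filled symbols mark adjusted p below 0.05, which 1.0% of all tested genes met. No ABC gene is filled and 18 of the 23 sterol genes are, all to the right of 0.

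Other genes tied to the ABC pumps were counted in the same fits. Of 15 LXR sensors and LXR targets outside the family, 3 were higher at 50 µM at 24 h (Scd1, Scd2 and Fasn, genes of fatty acid synthesis that SREBP also drives) and 2 at 48 h (Scd1 and Scd2), where 0.375% and 1.0% of all tested genes were called. From 10 to 50 µM at 48 h, 3 of the 15 were higher, against 0.921% of all genes, and none was lower in any of these comparisons. Of 18 tested xenobiotic sensors and detoxification genes, the list that would pair with the drug exporters, 1 was higher at 48 h and none was lower, and at 24 h none of 17 was called. Of 3 ABC genes outside the naming rule, Tap1, Tap2 and Cftr, none was called at 24 or 48 h. At 10 µM none of these lists held a call at any time.

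Libraries with the same replicate number resembled each other in Abcg1. At 3 h replicates 1 to 5 read 32.2, 15.4, 24.7, 26.0 and 19.1 CPM in DMSO, 31.1, 18.3, 23.9, 26.3 and 19.8 CPM at 10 µM, and 37.8, 22.4, 23.1, 30.1 and 18.5 CPM at 50 µM. Replicate 1 was the highest and replicate 4 the next at every dose, and replicates 2 and 5 were low. At 48 h the same numbers read 26.4, 27.1, 28.4, 27.8 and 30.2 CPM in DMSO, where no such order was seen. Between replicates of a group Abcg1 thus varied more at 3 h than it differed between doses at any time, with an SD of 6.47 CPM at 3 h and 1.46 CPM at 48 h in DMSO.

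**Figure D5:**
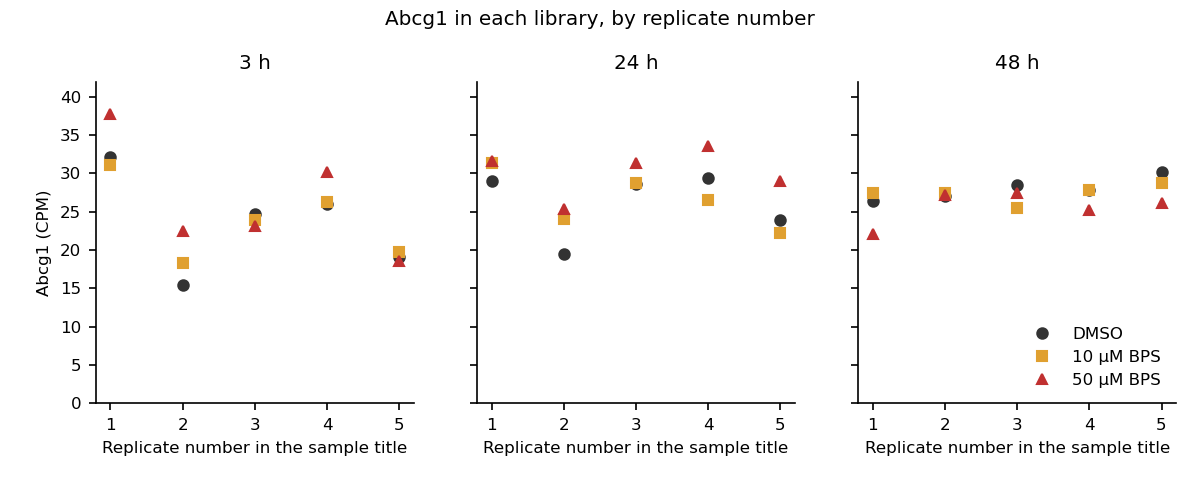
Abcg1 in CPM for each of the 45 libraries, plotted by the replicate number of the sample title at 3, 24 and 48 h, with 1 symbol per dose. At 3 h replicate 1 is highest at every dose, from 31.1 to 37.8 CPM, and at 48 h all libraries lie between 22.1 and 30.2 CPM.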

How the data were processed

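The authors deposited 9 tables, each with the counts of 2 groups; STAR 2.5, HTSeq 0.6.1, CASAVA 1.8, DESeq2 and the build mm10 appear in the submitters' processing notes without roles, and whether strand was kept is not given in the sources used here. Whole-number counts, as the authors deposited them, were joined by gene ID; the 1319925 control counts that tables repeat were identical. Each comparison was fitted over all genes on its 10 libraries with edgeR 4.0.16 (TMM, filterByExpr, robust quasi-likelihood, R 4.3.3; n = 5 per group) and the 3 differences between times on all 45 libraries, with Benjamini-Hochberg adjustment over all genes. Values after ± of a log2 change are standard errors; other values after ± are SD. The code was tested on simulated data. CPM used TMM over 45 libraries. The same tables also hold the authors' FPKM values and a signal column (counts divided by 1 factor per library), per the file headers and values, which were not used, and the authors' log2 fold changes and p-values of their own comparison. The authors' deposited table of each DMSO or BPS comparison shared 17 of 17, 9 of 9 and 20 of 21 control calls with edgeR (Abcb8 was called by edgeR alone) and had no BPS call among members.

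A few results are not reported here, and 2 members are not drawn in the figures, though counts include them. Members and lists were chosen with earlier results of these data known. Text names members called in a comparison (at most 10 each way), a panel of 14, and otherwise the 3 smallest p; the others named (the chromosome neighbours, and members called only in an alternative) were picked after values were seen. Libraries of the same replicate number correlated above 0.1 in all 5 pairs for 50 µM against DMSO at 3 h (0.116 to 0.308) and 24 h (0.122 to 0.317), 10 µM against DMSO at 24 h (0.136 to 0.313) and 50 against 10 µM at 24 h (0.151 to 0.31); numbers were taken as pairs there only. Alternatives were DESeq2 1.42.0, RLE factors, no low count filter, the replicate block, each library left out, 1 fit of all 45 libraries and CPM by total alone.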

Additional observations from a re-analysis of the deposited data

Results flagged for a closer look

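In 17 of 234 groups of 5 libraries, taken over 26 members whose levels were compared, 1 library stood apart from the other 4 by Dixon's criterion, where chance alone marks about 1 group in 20. Among controls, Abca1 at 24 h had replicate 2 low at 123.9 CPM, Abcb9 at 24 h replicate 4 low at 4.532 CPM, Abca9 at 48 h replicate 1 low at 15.39 CPM and Abcg2 at 48 h replicate 3 low at 28.03 CPM. At 10 µM and 3 h, Abcd2 had replicate 4 low at 6.093 CPM. At 10 µM and 24 h, Abca3 had replicate 5 low at 45.8 CPM, Abcb10 replicate 3 high at 36.7 CPM, Abcc10 replicate 2 low at 22.1 CPM and Abcf2 replicate 2 low at 99.16 CPM. At 10 µM and 48 h, Abca12 had replicate 2 high at 11.01 CPM, and replicate 3 was low in Abcb8 at 32.49 CPM and in Abce1 at 124.3 CPM. At 50 µM and 3 h, Abcb9 had replicate 3 high at 4.393 CPM, Abcc10 replicate 4 high at 42.13 CPM and Abcf2 replicate 5 high at 126.1 CPM. At 50 µM and 24 h, Abcc4 had replicate 3 high at 4.525 CPM and Abcd3 replicate 5 high at 71.98 CPM. Omission of the Abca9 library alone turned the 50 µM difference at 48 h into a call.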

How the results depend on the processing

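Of 249 alternative counts of called members, 239 stayed within 1.5 times the reported count and 10 did not, and no called change reversed. With the replicate block, the counts became 1 at 3 h and 3 at 24 h for 50 µM against DMSO, and 2 at 48 h for 50 against 10 µM (Abca9 at -0.338, edgeR adjusted p = 0.0307, and Abca12 at -0.739, edgeR adjusted p = 0.0117). The numbers were not taken as pairs in that last comparison, where correlations ran from -0.047 to 0.24 and 3 of 5 libraries correlated best with their own number. By best matches alone the choice would differ. They were also 3 of 5 for 10 µM against DMSO at 24 h, taken as pairs, and 4 of 5 for 50 against 10 µM at 3 h, not taken as pairs. Over all genes the block moved calls for 50 against 10 µM at 48 h from 152 to 328. In the control comparisons the block gave 16, 9 and 19 members against 17, 9 and 21, losing Abcf2 at 24 h (edgeR adjusted p = 0.057) and Abcb8 at 48 h (0.0744) among others, with correlations from -0.179 to 0.299. It changed no member call in the BPS comparisons other than those given here and in the text. Without the low count filter, 50 against 10 µM at 48 h gave 2 members (Abca9, edgeR adjusted p = 0.0115, and Abca12, 0.000361). Leaving out 1 library gave 15 to 18 control calls at 24 against 3 h, 5 to 9 at 48 against 24 h and 19 to 23 at 48 against 3 h, 0 to 1 for 50 µM against DMSO and for 50 against 10 µM at 48 h, and 0 in every other BPS comparison. Of 675 alternative values of the 45 called changes that the naming rule took (2 more control calls lay outside it), 623 remained called and 52 fell short of the threshold; of 3428 values of uncalled changes, 15 were called and 257 had the other sign without being called. CPM by total counts alone moved 13 of 252 group levels by more than 1 SD. Depth limited the 10 members that no comparison tested, of which 4 never exceeded 3 reads (0.13 to 0.197 CPM).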
